A study of Mus musculus with 6 samples.

Results

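Intragenic regions away from gene ends are stretches of chromatin that carried a peak inside the body of a protein-coding gene but not near its start or finish. They were chosen from the peak lists of 6 CUT&Tag libraries. Peaks with an adjusted p under 0.05 in their own library (called peaks) on chromosomes 1 to 19, X and Y were merged into 43759 regions, of which 29342 held a called peak in at least 2 libraries. A region was kept if it was under 4000 bp wide, overlapped the span of a protein-coding gene in the mouse assembly mm10 and lay more than 2 kb from every protein-coding gene end, either 5′ or 3′. This left 9432 intragenic regions, 32.1% of the 29342. They lay in the bodies of 4814 genes, on every autosome and on X, and none lay on Y.

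The libraries came from group 2 innate lymphoid cells (ILC2s) of the mouse colon, grown in the presence of IL-33 and IL-25, which activate them, and of IL-7 and IL-2, which sustain them. There were 2 libraries in each of 3 groups, a Control group with no added compound named in the labels, cells given FK866, and cells given FK866 plus succinate. The labels describe sorted gut ILC2s put into culture and cultured ILC2s sorted for the assay. The labels give no strain, age, dose or time, nor whether replicates came from separate cultures or animals, so p-values reflect the spread of these samples alone, which may be technical.

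ILC2s are tissue lymphocytes without antigen receptors that answer alarm signals from the epithelium, such as IL-25 and IL-33, by releasing type 2 cytokines. FK866 blocks NAMPT, the enzyme that recycles nicotinamide into NAD, a cofactor of central metabolism. Succinate is a metabolite made and oxidised in the tricarboxylic acid (TCA) cycle. CUT&Tag tethers a transposase to chromatin through an antibody, and the DNA around the bound site is then tagged and read. Which protein or mark the antibody bound is not stated in the labels, so a peak means only enrichment for that unnamed target. In lymphocytes the bodies of genes are known to hold enhancers, short stretches bound by transcription factors that raise transcription from a distance, and alternative promoters, from which a shorter or differently begun transcript is made.

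The label of the set was first checked against known transcription starts. RefSeq promoter windows for mm10 (GRCm38.p6), each running from 250 bases before a start to 50 bases after it, listed 3071 starts of protein-coding genes that lie inside a gene body more than 2 kb from any gene end. Of these alternative starts, 1096 (35.7%), from 863 genes, fell inside an intragenic region. For 476 of those 863 genes (55.2%) no listed start lay within 2 kb of a gene end, so that the internal start was the only kind the table held for that gene. The other 387 genes had a further listed start at the edge of the span. The table is not complete, and a region with no listed start may still hold one. Away from gene ends by the rule therefore did not mean away from promoters.

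To show what such regions hold, promoter windows from 8 of them follow, 5′ to 3′ on the strand of the gene, in lower case with every CG dinucleotide (CpG) in capitals. The first 5 are CpG-rich and the last 3 are CpG-poor. Cops3 encodes a subunit of the COP9 signalosome and its region was among the strongest of all. GATA3 is the transcription factor that defines ILC2s, and RUNX1 is a factor of early lymphoid cells. STAT5B carries the signal of IL-2 and IL-7, and LDHA makes lactate from pyruvate. IKZF1 (Ikaros) is a zinc finger factor of lymphocytes, IL9R is the receptor of IL-9, and CCR4 is a chemokine receptor of type 2 lymphocytes.
Cops3: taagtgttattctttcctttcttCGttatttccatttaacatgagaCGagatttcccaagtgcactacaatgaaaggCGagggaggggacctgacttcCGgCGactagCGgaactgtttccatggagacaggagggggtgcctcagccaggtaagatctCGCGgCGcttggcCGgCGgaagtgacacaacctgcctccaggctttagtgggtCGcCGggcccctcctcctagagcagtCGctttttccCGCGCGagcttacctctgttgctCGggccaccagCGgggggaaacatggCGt
Gata3: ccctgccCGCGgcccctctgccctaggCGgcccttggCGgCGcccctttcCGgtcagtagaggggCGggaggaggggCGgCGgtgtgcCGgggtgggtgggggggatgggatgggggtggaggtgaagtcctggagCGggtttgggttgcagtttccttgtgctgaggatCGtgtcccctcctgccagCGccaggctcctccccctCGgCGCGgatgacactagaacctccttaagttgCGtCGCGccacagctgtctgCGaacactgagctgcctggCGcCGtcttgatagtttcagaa
Runx1: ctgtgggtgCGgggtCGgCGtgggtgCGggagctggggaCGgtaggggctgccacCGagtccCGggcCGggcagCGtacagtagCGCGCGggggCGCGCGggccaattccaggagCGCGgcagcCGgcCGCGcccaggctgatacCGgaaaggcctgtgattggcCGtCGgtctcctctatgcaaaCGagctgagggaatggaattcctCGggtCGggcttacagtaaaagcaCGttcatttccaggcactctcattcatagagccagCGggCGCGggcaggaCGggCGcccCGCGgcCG
Stat5b: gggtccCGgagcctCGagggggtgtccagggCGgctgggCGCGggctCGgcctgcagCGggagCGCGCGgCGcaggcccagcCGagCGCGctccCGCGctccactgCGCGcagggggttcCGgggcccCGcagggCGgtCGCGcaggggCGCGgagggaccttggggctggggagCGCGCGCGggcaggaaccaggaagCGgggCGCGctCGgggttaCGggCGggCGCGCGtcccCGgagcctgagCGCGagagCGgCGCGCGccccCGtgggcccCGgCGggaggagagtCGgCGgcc
Ldha: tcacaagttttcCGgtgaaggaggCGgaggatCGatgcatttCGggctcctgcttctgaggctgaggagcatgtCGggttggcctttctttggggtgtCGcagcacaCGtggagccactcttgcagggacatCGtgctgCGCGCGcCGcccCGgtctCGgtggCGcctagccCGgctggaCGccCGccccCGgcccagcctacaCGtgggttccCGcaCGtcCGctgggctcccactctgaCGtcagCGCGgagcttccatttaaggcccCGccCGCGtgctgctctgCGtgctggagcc
Ikzf1: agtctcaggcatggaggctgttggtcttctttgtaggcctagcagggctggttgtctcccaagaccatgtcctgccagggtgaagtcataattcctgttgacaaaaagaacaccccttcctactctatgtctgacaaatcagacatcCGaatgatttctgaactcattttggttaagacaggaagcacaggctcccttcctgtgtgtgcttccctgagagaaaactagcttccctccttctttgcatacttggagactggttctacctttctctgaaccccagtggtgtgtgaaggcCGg
Il9r: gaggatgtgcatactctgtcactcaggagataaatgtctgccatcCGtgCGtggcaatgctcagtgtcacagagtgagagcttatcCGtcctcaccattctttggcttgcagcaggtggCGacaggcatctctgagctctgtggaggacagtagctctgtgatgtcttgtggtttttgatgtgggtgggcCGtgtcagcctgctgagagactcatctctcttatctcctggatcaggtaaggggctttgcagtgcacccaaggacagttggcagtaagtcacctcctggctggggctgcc
Ccr4: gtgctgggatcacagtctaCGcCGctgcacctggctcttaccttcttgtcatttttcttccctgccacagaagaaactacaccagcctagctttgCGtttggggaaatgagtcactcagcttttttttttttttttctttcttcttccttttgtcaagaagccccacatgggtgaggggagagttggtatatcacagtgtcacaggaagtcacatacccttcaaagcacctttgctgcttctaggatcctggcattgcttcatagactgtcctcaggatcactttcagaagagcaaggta

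The Cops3 window lies at chr11:59839718-59840017 on the minus strand, 8.18 kb from the nearest gene end, and holds 20 CpG. The Gata3 window, at chr2:9878551-9878850 on the minus strand, lies 9.35 kb inside the annotated span and holds 22 CpG. The Runx1 window, at chr16:92697280-92697579 on the minus strand, is 95.9 kb from a gene end and holds 35 CpG. The Stat5b window, at chr11:100850532-100850831 on the minus strand, holds 50 CpG. The Ldha window, at chr7:46845554-46845853 on the plus strand, holds 30 CpG. By contrast the windows of Ikzf1 (chr11:11689927-11690226, plus strand), Il9r (chr11:32200230-32200529, minus strand) and Ccr4 (chr9:114496495-114496794, minus strand) hold 2, 5 and 3 CpG. All 8 windows overlapped regions with a called peak in all 6 libraries.

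CpG content separated the alternative starts that were marked from those that were not. The ratio of observed to expected CpG exceeded 0.6 in 928 of the 3071 windows. Of these CpG-rich starts 674 (72.6%) lay inside an intragenic region, against 422 (19.7%) of the other 2143. The median window inside a region held 18 CpG with a GC content of 60.7%, and the median window outside held 5 CpG with 50.3%. Starts near gene ends that lay inside a region held 22 CpG and 62.3% GC, and all 32851 windows of the table held 7 CpG and 52.7% GC.

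Short motifs were searched on both strands of the same windows as plain letters, and a base could count towards more than 1 motif. GGGCGG, the box bound by SP factors, was present in 60.1% of alternative starts inside a region, in 22.3% of those outside and in 35.7% of all promoters. CCGGAAG, an ETS family motif, was present in 10.1%, 2.94% and 8.86%. AGATAA, which factors such as GATA3 bind, went the other way, at 6.20% inside, 12.9% outside and 11.2% of all promoters. TGACTCA, the AP-1 motif, was present in 5.20%, 5.82% and 5.20%. TGTGGTT, a RUNX motif, was present in 3.38%, 6.38% and 5.27%, and TGACGTCA, bound by CREB and ATF factors, in 1.92%, 1.16% and 1.79%. These shares are descriptions of letters and move with GC content.

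The 917 intragenic regions that held an alternative start (9.72%) were compared with the rest. The rule sets a width limit and a least number of libraries for all of them alike, and listed starts played no part in it. Another 123 held a listed start of a long noncoding RNA (lncRNA), and 8392 held no listed start. A called peak was present in all 6 libraries in 89.7% of the regions with an alternative start, in 70.7% of those with an lncRNA start and in 39.0% of those with none. The strength of a peak was taken as the percentile of its −log10 p within its own library, and a region without a peak in a library counted as 0 there. Of the 268 regions with a mean strength of 90 or more, 201 (75%) held an alternative start and 61 held none.

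Peaks at alternative starts were also wider and more enriched in every library. The median width of called peaks there was 1480 bp ± 37.7 (SD, n = 6 libraries), against 797 bp ± 16.8 in regions with no listed start. The median fold enrichment was 7.24 ± 0.145 against 3.90 ± 0.0807, in the authors' ratio of signal over local background. The median strength percentile was 81.4 ± 2.19 against 59.8 ± 5.77. Each difference had the same direction in 6 of 6 libraries (exact sign-flip permutation test over libraries, two-sided, p = 0.03125, the smallest that 6 libraries allow, adjusted p = 0.03125 over 6 tests). A start was counted when it fell inside a merged region, which a wider region allows more readily. The merged regions had median widths of 1718 bp and 1035 bp, so the width test is not independent of how the kinds were defined. The strength and fold tests were not matched for width, and its part in them was not tested. Peak significance, on which strength rests, also enters the rule. Regions with an lncRNA start lay between, with a median width of 1147 bp ± 80.9 and a fold enrichment of 5.19 ± 0.228.

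**Figure D1:**
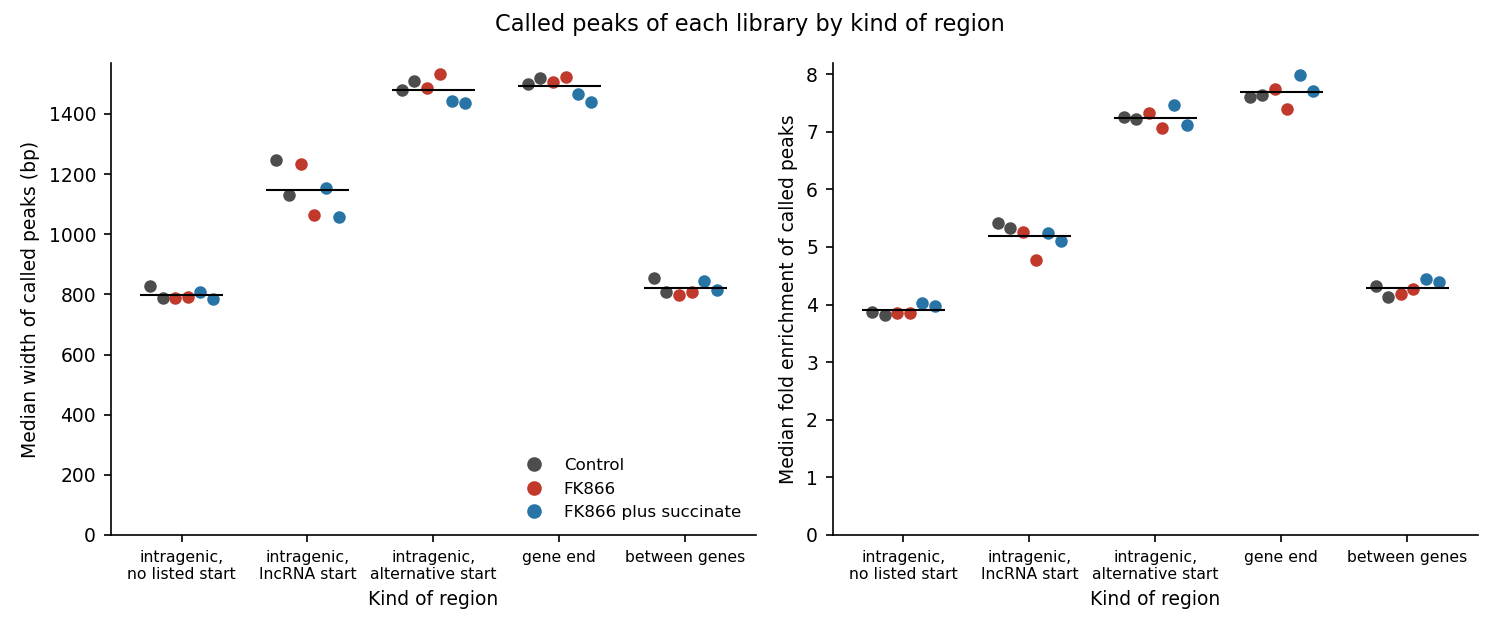
Median width in bp (left) and median fold enrichment (right) of called peaks by kind of region, 1 point per library, coloured by group, with a line at the mean of the 6 libraries. Regions at alternative starts, near 1480 bp and 7.24-fold, sit beside gene ends, whereas regions with no listed start, near 797 bp and 3.90-fold, sit beside the regions between genes.

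By mean strength the first 10 intragenic regions lay in Rnf14, Cops3, Iqgap1, Slf2, Zfp638, Dnmt1, Hint3, Psma3, Mettl3 and Echdc1, and 8 of these 10 held an alternative start, the exceptions being Rnf14 and Slf2. The Dnmt1 region (chr9:20950906-20953285), in the gene of the maintenance DNA methyltransferase, had fold enrichments of 9.84 and 8.92 in Control, 9.38 and 8.89 with FK866, and 10.7 and 10.1 with FK866 plus succinate. The Cops3 region (chr11:59838548-59840301) had 12.3 and 11.4 in Control, 11.3 and 11.2 with FK866, and 11.4 and 12.8 with FK866 plus succinate. In fold enrichment the FK866 libraries were slightly below the other 4 at Cops3, and both succinate libraries were the highest at Dnmt1. Coverage of the Dnmt1 region by called peaks went the other way. It was 84.8% and 91.8% in Control, 84.9% and 91.8% with FK866, and 77.6% and 76.9% with FK866 plus succinate. The Gata3 start region (chr2:9878093-9879893) was much less enriched than the Dnmt1 and Cops3 regions, with fold enrichments between 2.17 and 2.46, and overlapped between groups.

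The 5 widest regions lay in Fnbp1, Frmd4b, Hivep2, Abcg1 and Pou2f2 and reached 3953 bp in Fnbp1, just under the limit of 4000 bp. The narrowest intragenic region that the limit left out was 4038 bp, and 21 were left out in this way. The region closest to a gene end lay 2001 bp away and the farthest one not kept lay 2000 bp away. Regions called in 2 libraries, the least the rule admits, had a median strength of 22.7, averaged over the libraries with absent peaks as 0, against 68.7 for those called in all 6. A further 7776 intragenic regions were called in 1 library only and were not kept.

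Compared with gene ends, the intragenic regions were narrower, weaker and less often shared. Called peaks inside them had a median width of 866 bp ± 18.9 (SD, n = 6 libraries), against 1492 bp ± 32.3 within 2 kb of a gene end, and a strength percentile of 61.8 ± 5.44 against 84.7 ± 2.05. A called peak in an intragenic region had company in 4.03 ± 0.110 of the other 5 libraries on average, against 4.79 ± 0.0470 at gene ends. All 3 differences had the same direction in 6 of 6 libraries (exact sign-flip permutation test, two-sided, p = 0.03125, adjusted p = 0.0417 over 12 tests). Distance was measured from the edge of a merged region, so a wider region more readily counts as a gene-end region. Width, peak significance and number of libraries also enter the rule, so the tests do not show an effect of position alone. A called peak was present in all 6 libraries in 44.4% of the intragenic regions and in 84.7% of the gene-end regions.

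Regions with no listed start were slightly weaker and narrower than the 5244 regions between genes that lay 2 to 50 kb from a gene end. Their peaks were narrower by 24.3 bp ± 8.86 and lower in strength percentile, at 59.8 against 62.3 (SD over 6 libraries, 6 of 6 lower, exact sign-flip permutation test, adjusted p = 0.0417 over the same 12 tests). Taken whole, with the alternative starts included, the intragenic set was wider than the regions between genes by 44.5 bp ± 4.09 (6 of 6 libraries, adjusted p = 0.0417, same exact test). Its strength percentile differed by −0.495 ± 0.293 (5 of 6 libraries lower, same exact test, adjusted p = 0.075). The number of other libraries with a called peak differed by −0.0216 ± 0.0251 (4 of 6 lower, same exact test, adjusted p = 0.136). The sign of the width difference thus depended on whether regions with a listed start were included. Such regions were taken out on the intragenic side only, so the first comparison was not between sets filtered alike.

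Along genes, the density fell with distance from the ends beyond 10 kb. There were 16.3 regions per Mb of eligible sequence between 2 and 5 kb from a gene end, 19.3 between 5 and 10 kb, 13.7 between 10 and 25 kb, 9.07 between 25 and 50 kb and 3.38 beyond 50 kb, and the median distance was 12.8 kb. Divided into 5 equal stretches from the 5′ end, the eligible part of gene bodies held 11.7, 12.0, 10.3, 9.31 and 7.39 regions per Mb. The share called in all 6 libraries fell along the same stretches from 50.9% to 35.1%. The direction of the gene was known for 79.8% of host genes.

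The 383 genes with 5 or more regions held 28.4% of the set. Of the 17598 protein-coding genes with sequence more than 2 kb from any end, 27.4% held a region, 2855 held exactly 1 and 56 held 10 or more. Of 2284 genes with at least 100 kb of eligible sequence 1028 held a region and 1256 held none. The genes with most regions were Rora with 26, Gse1 with 20, Clec16a with 19, Akap13 with 18, and Cdk6, Nfkb1 and Prex1 with 16 each. Ankrd11, Atxn1 and Ets1 followed with 15 each, tied with Rapgef2, Sgms1 and Zmiz1. Per 100 kb of eligible sequence Chd5, Nfkb1, Sfi1 and Ikzf1 were the densest of the genes with 8 or more regions, with 16.8, 15.5, 15.2 and 13.1.

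Rora encodes the nuclear receptor RORα, which ILC2s need in order to develop, and spans chr9:68653404-69388246. Called peaks were present in 21 and 18 of its 26 regions in Control, in 23 and 19 with FK866, and in 15 and 20 with FK866 plus succinate. The groups overlapped. In total 13 of the 26 were called in all 6 libraries, and 14 lay within one stretch of 64.6 kb towards the 3′ end (chr9:69289399-69353986), the largest number within any 100 kb of the gene. The region at the 5′ edge of that stretch (chr9:69289399-69292053) was covered almost whole in every library, by 96.6% to 100% of its bases. The region at chr9:69300089-69300548 was covered by 86.3% and 68.5% in Control and 94.1% in FK866 replicate 1, and by no peak in the other 3 libraries.

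Nfkb1, which encodes the p105 and p50 subunit of NF-kB, the factor activated downstream of the IL-33 receptor, held 16 regions within 87.9 kb. Of these, 13 and 14 were called in Control, 12 and 10 with FK866, and 10 and 8 with FK866 plus succinate. Both Control libraries were above the other 4, but Nfkb1 was picked for mapping after values were seen. Only 5 of the 16 were called in all 6 libraries. Of all 9432 intragenic regions, 7079 and 7356 were called in Control and 7384 and 6856 with FK866. With FK866 plus succinate the numbers were 6378 and 6401. The part of these library-wide numbers in the Nfkb1 counts was not tested. Ets1, an ETS factor of lymphocytes, held 15 regions within 94.0 kb, of which 13 and 13 were called in Control, 13 and 11 with FK866, and 11 and 10 with FK866 plus succinate. Its region at chr9:32695501-32698145 was covered by 97.8% to 99.4% in every library.

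**Figure D2:**
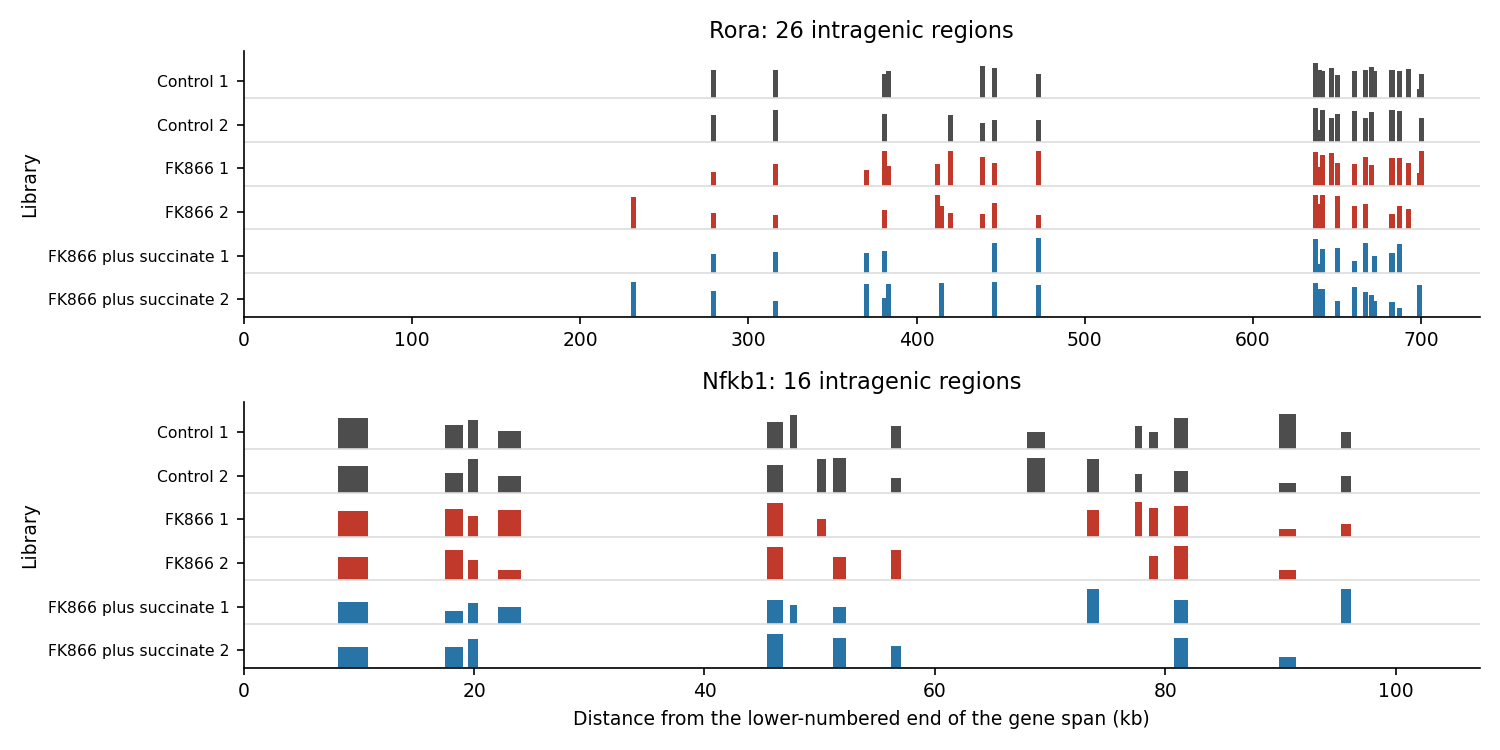
Intragenic regions along Rora (top) and Nfkb1 (bottom), with distance in kb from the lower-numbered end of the gene span on the x axis and 1 row per library, coloured by group. The height of a mark is the percent of the region covered by called peaks, and narrow regions are drawn at a minimum width. Rora shows the group of 14 regions near its right end, 8 of them marked in all 6 libraries, and Nfkb1 shows regions along its whole length, fewer of them marked in the lower rows. Over the whole set of intragenic regions, fewer were also called in the succinate libraries.

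Among genes known from ILC2s some held several intragenic regions and others none. Gata3 held 5 regions, each called in all 6 libraries. Bcl11b, which encodes a zinc finger factor needed for ILC2 identity, held 11, Ikzf1 11, Runx1 10 and Ikzf3 9. Il1rl1, the gene of the IL-33 receptor, held 5, as did Icos, a costimulatory receptor, and Il2ra, the high-affinity subunit of the IL-2 receptor, held 4. The 2 regions of Il9r were each called in all 6 libraries. Zbtb16, the gene of the factor PLZF that marks ILC precursors, held no region in 172 kb of eligible sequence. The cytokine genes Il5, Il13 and Areg and the receptor genes Il17rb and Il7r also held none. Il13 has no eligible sequence and Il5 only 0.308 kb, with 4.83 kb in Areg, 8.73 kb in Il17rb and 19.8 kb in Il7r.

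To check the labelled cell type, marker genes were read over gene spans widened by 2 kb. All 10 ILC2 markers carried a called peak in all 6 libraries, with a summed peak length of up to 71.5 kb and no less than 60 kb and 42 intragenic regions. Of 7 T cell markers found in the annotation, Cd3d, Cd3g and Cd4 carried peaks in all 6, Cd3e in 1 library and Cd8a in none, and none held an intragenic region. The ILC3 markers Il17a, Il22 and Il23r, the natural killer genes Ncr1 and Klrb1c, the mast cell genes Cpa3 and Mcpt4, the myeloid genes Csf1r and Lyz2 and the B cell gene Ms4a1 carried no called peak in any library. Some genes of other cell types did carry peaks in all 6, among them Pax5, Ebf1 and Cd79a of B cells, Tbx21 and Eomes of natural killer cells, Spi1 and Cd68 of myeloid cells, Epcam of epithelium and Kit of mast cells, and Kit held 5 intragenic regions. The part of other cells in the results was not tested.

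The density of intragenic regions per Mb of eligible gene body differed widely between 14 gene lists. It was 66.5 for NF-kB and NFAT genes (44 regions in 10 of 17 genes with eligible sequence), 51.7 for AP-1, BATF, EGR and NR4A genes (9 regions), 49.0 for transcription factors of ILC2s (143 regions in 18 of 21), 42.8 for checkpoint and costimulatory receptors (20), 40.9 for JAK, STAT and SOCS genes (27) and 40.2 for receptors of ILC2s (25). The density over all genes was 9.92. A list of neuronal genes, taken as a non-lymphoid comparison, held 6 regions, a density of 0.399. These densities are descriptions, and the lists were chosen with earlier results of these data known. They were not matched for distance from gene ends, with which density falls.

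T cell receptor signalling genes held 27.4 regions per Mb and adhesion and migration genes 22.7. Metabolic genes close to the treatments lay above the value for all genes. Density falls with distance from gene ends, from 19.3 per Mb between 5 and 10 kb to 3.38 beyond 50 kb. The lists were not matched for this distance, and its part in their values was not tested. Genes of NAD synthesis and use held 18 regions (18.7 per Mb), in 11 of 29 genes, and Nampt, whose product FK866 blocks, held none in 29.0 kb. TCA cycle and succinate genes held 14 (18.2 per Mb) in 9 of 25, among them 3 in Cs, the gene of citrate synthase. Glycolysis and HIF genes held 30 (36.8 per Mb), with 5 in Hk1 and 4 in Hif1a. Histone and DNA methylation genes held 49 (21.7 per Mb), with 7 in Dnmt3a, 5 in Ezh1 and 4 in Dnmt1. The effector genes are compact, and of 18 only Lif held regions, with 2. Of the 325 list genes 28 held an alternative start inside a region, among them Idh1, Idh2, Hif1a, Stat4, Stat5b, Kdm2b, Dnmt3a and Tet3.

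**Figure D3:**
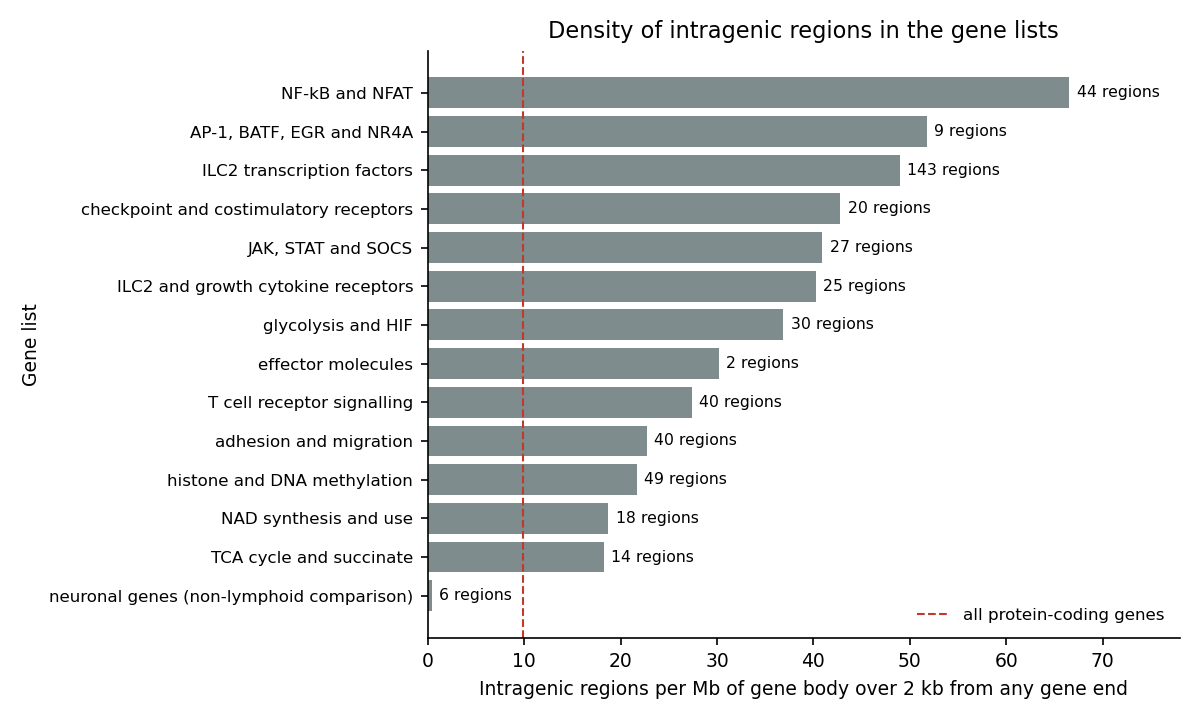
Intragenic regions per Mb of gene body more than 2 kb from any gene end (x axis) in each of 14 gene lists (y axis), with the number of regions beside each bar and a dashed line at the value of 9.92 for all protein-coding genes. NF-kB and NFAT genes stand highest at 66.5 and neuronal genes lowest at 0.399. The lists were not matched for distance from gene ends.

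Fewer intragenic regions carried a called peak in the succinate libraries. The numbers were 7079 and 7356 of 9432 in Control, 7384 and 6856 with FK866, and 6378 and 6401 with FK866 plus succinate. Both succinate libraries lay below the other 4, whose values overlapped. The sequence covered was 7.36 and 7.47 Mb, 7.45 and 6.98 Mb, and 6.53 and 6.40 Mb in the same order. Counting any deposited peak, however weak, the numbers were closer, at 8460, 8257, 8299, 8148, 7951 and 8031. The lower numbers were not particular to the intragenic set. At gene ends the succinate libraries had 12324 and 12340 called peaks, against 12595 to 12815 in the other 4. Between genes, 2 to 50 kb from a gene end, they had 3674 and 3719, against 3883 to 4230. Farther than 50 kb from a gene end they had 888 and 915, against 942 to 1016. In a bulk library, fewer cells with a peak and less signal per cell cannot be told apart.

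The exact permutation test over all 15 ways of pairing the 6 libraries gave p = 0.2 for the number of called peaks inside intragenic regions, where the smallest possible p is 0.0667, and an adjusted p of 0.267 over 8 tests. The design cannot reach 0.05. The total of called peaks moved in part with this, at 27200, 28269, 28252, 26872, 25187 and 26853, and its part in the result was not tested. Intragenic regions took 26.6% and 26.5% of called peaks in Control, 26.7% and 26.1% with FK866, and 26.0% and 24.5% with FK866 plus succinate. The overlap of covered bases (Jaccard index) was 0.620 within groups and 0.603 between groups, a difference of 0.0172 (one-sided exact permutation test, p = 0.0667, the smallest allowed, adjusted p = 0.267). Read depths were not used here, since the lists hold peaks only.

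**Figure D4:**
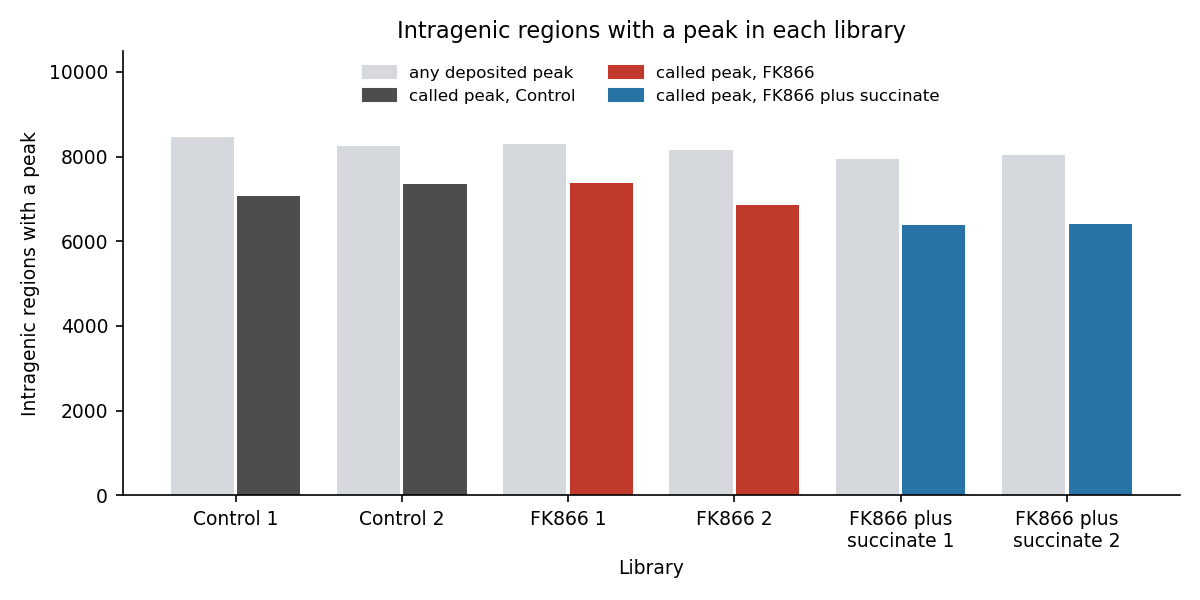
Number of the 9432 intragenic regions (y axis) with any deposited peak (light bars) and with a called peak (dark bars, coloured by group) in each of the 6 libraries (x axis). Called regions number 6378 and 6401 in the succinate libraries and between 6856 and 7384 in the other 4. Called peaks at gene ends and between genes were also fewer in the succinate libraries.

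Which regions differ between groups was asked in 3 comparisons, which share samples and are not independent of each other. For each region the percentage of its bases covered by called peaks was compared with limma. In addition, a region was taken as lost where a called peak stood in each reference library and neither library of the other group had a deposited peak of any strength, and as gained in the reverse case. These counts carry no test, and leaving out any 1 library, which removes a condition, raised them, for example from 108 to between 204 and 326 for regions lost with FK866. The requirement of a called peak in 2 libraries weighs on them, since a region called only in both libraries of 1 group enters the set because it differs. Of the 2182 regions called in exactly 2 libraries, 523 had both in the same group, 201 of them Control, 182 FK866 and 140 the succinate group.

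FK866 against Control showed losses and gains in similar number. There were 108 lost regions (1.15% of the set, against 0.818% of all 29342 regions) and 87 gained (0.922%, against 0.549%). Among the strongest lost were regions in Nfix, a nuclear factor I gene, Cspg4, a proteoglycan gene, and Map3k14, whose product NIK drives non-canonical NF-kB signalling. Among the strongest gained were regions in Runx2, a RUNX family factor, Fbxo34 and Ntan1. Of the lost and gained regions 80 and 62 were called in just 2 libraries.

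The region in Map3k14 (chr11:103262284-103262781) was covered by 76.7% and 82.1% in Control and by no called peak in the other 4 libraries, although succinate replicate 1 had a weaker deposited peak there. The region in Nfix (chr8:84737494-84738137) was covered by 41.0% and 89.9% in Control, by 0 in both FK866 libraries, and by 100% and 41.8% with FK866 plus succinate. The region in Runx2 (chr17:44654528-44654995) was covered by 100% and 82.9% with FK866 and by no peak in the other 4 libraries. A region in Nadk2 (chr15:9078854-9079287), the gene of mitochondrial NAD kinase, followed the same pattern, with 95.4% and 100% with FK866 and no peak elsewhere. That FK866 and Control libraries do not overlap in these regions follows from how they were picked.

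By limma 0 of the 9432 regions, and 0 of all 29342 (0%), passed an adjusted p under 0.05, and the lowest adjusted value was 0.899. Unadjusted, at p under 0.05, there were 290 wider regions (3.07%, against 2.57% of all) and 329 narrower ones (3.49%, against 2.81%). The median difference was −0.64 percentage points, against −0.24 over all regions. It was −1.65 without FK866 replicate 1, −0.07 without Control replicate 1, and 0 without Control replicate 2 or FK866 replicate 2. A fit that does not let the spread depend on mean coverage, chosen after seeing the data, called 185 regions (1.96%, against 1.26% of all), and all 185 were empty in both libraries of 1 group. Among the 6 narrower regions with the smallest p was one in Ppard (chr17:28290298-28291736), the gene of a nuclear receptor for fatty acids. It was covered by 95.3% and 93.8% in Control, 66.7% and 67.3% with FK866, and 86.8% and 92.9% with FK866 plus succinate, a difference for FK866 of −27.5 ± 6.8 points (SE, limma, adjusted p = 0.899).

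The spread between libraries of 1 group sets what these tests can see. Its median was 5.60 points for regions covered by 80% or more on average, 15.2 between 60% and 80%, 30.5 between 40% and 60%, and 41.8 between 20% and 40%, where most regions with a missing peak lie. No listed start was present at 106 of the 108 lost and all 87 gained regions, against 89.0% of the whole set. Of the gene lists, FK866 against Control had 1 lost region each in Bcl11b, Rela, Skap1 and Tigit, whose lists held 143, 44, 40 and 20 regions. It had 1 gained each in Ptgdr2, Jak2, Nadk2, Pfkp and Prkcq, whose lists held 25, 27, 18, 30 and 40. Over the whole set 1.15% were lost and 0.922% gained, against 0.818% and 0.549% of all 29342 regions. Single regions in lists of this size are not read as a result about these genes.

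FK866 plus succinate against FK866 showed more losses than gains as deposited, but not when an equal number of strongest peaks was taken from every library, which gave 83 lost and 83 gained. With the deposited lists there were 144 lost regions (1.53%, against 1.06% of all) and 96 gained (1.02%, against 0.665%). The strongest lost lay in Cdc37, a co-chaperone of kinases, Arhgap45, Cipc, a partner of CLOCK, Ikzf1, Derl1, Smarcd3, Fbxo5 and Def6. The strongest gained lay in Gm7592, Prickle1, Coro2b, Rasgrf1, Nfic, Nfix, Cped1 and Sgk1, a kinase of the salt and insulin response.

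The Ikzf1 region (chr11:11692540-11693014), 7.58 kb from a gene end and downstream of the region that holds the Ikzf1 start printed above (chr11:11689984-11691239), was covered by 82.5% and 92.2% in Control and by 98.7% and 75.4% with FK866. No deposited peak touched it in either succinate library. The difference was −87.1 ± 21.1 points (SE, limma, unadjusted p = 0.0031, adjusted p = 0.365). That start region was covered by 77.4% to 95.3% in all 6 libraries, and the groups overlapped. The region in Arhgap45 (chr10:80018676-80019314) was covered by 94.7% and 99.1% in Control, 97.8% and 95.8% with FK866 and 0 in both succinate libraries. It lies 2.00 kb from a gene end, at the edge of the distance rule, and its fold enrichment where present was between 1.91 and 2.25.

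The region in Sgk1 (chr10:21991450-21991892) was covered by 97.7% and 65.7% with FK866 plus succinate and by no peak in the other 4 libraries. The region in Nfix that was lost with FK866 was also one of the strongest gained here, which follows from the shared FK866 libraries. Of the 108 regions lost with FK866, 9 had a called peak in both succinate libraries, 19 in 1 and 80 in neither. With any deposited peak counted, 23 of the 108 had one in both succinate libraries and 39 in neither. Of the 87 regions gained with FK866, 62 had no called peak in either succinate library.

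By limma 0 of 9432 regions passed an adjusted p under 0.05 (background 0%), and the lowest adjusted value was 0.365. Unadjusted, at p under 0.05, there were 263 wider regions (2.79%, against 2.1% of all) and 670 narrower (7.10%, against 9.28% of all). The median difference was −4.69 points, against −3.89 over all regions, and without FK866 replicate 1 it was −0.59. After quantile normalization, which equalises the distribution of coverage between libraries, the median was 0 and the split became 377 wider and 424 narrower, 47.1% wider in place of 28.2%. The fit without a trend called 205 regions (2.17%, against 1.48% of all), of which 200 were empty in both libraries of 1 group.

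Several of the narrower regions with the smallest p kept a called peak in every library. The region in Mier1 (chr4:103119061-103121403), which holds an alternative start of a gene for a transcriptional corepressor, was covered by 95.6% and 97.5% in Control, 95.9% and 98.1% with FK866, and 54.0% and 60.3% with FK866 plus succinate. The difference from FK866 was −39.8 ± 6.9 points (SE, limma, unadjusted p = 0.000387, adjusted p = 0.365). The region in Taok3 (chr5:117133374-117136270), a kinase gene, was covered by 97.8%, 96.2%, 97.6% and 99.3% in the first 4 libraries and 78.1% and 77.5% in the succinate libraries. Its fold enrichment, 6.20 and 6.41 in the succinate libraries, was not lower than the 5.78 to 6.04 of the others. Regions in Sp2, a factor that binds GC boxes, and Dcun1d5 also held alternative starts and were narrower in both succinate libraries than in all others. Since these regions were picked by a small p, that the succinate and FK866 libraries do not overlap follows from the choice.

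In the opposite direction, the region in Cd101 (chr3:101010545-101011223), an inhibitory receptor gene, was covered by 79.7% and 73.9% in Control, 66.0% and 67.2% with FK866, and 100% and 98.8% with FK866 plus succinate. The region in Cd200r1 (chr16:44768988-44770234), the gene of another inhibitory receptor, was covered by 33.4% and 65.9% in Control, by 0 in both FK866 libraries and by 96.6% and 93.2% with FK866 plus succinate, although weaker deposited peaks were present with FK866. The succinate libraries were above all others in both regions. Their separation from the FK866 libraries follows from how the regions were picked, by the smallest p.

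FK866 plus succinate against Control gave 167 lost regions (1.77%, against 1.26% of all), with 80 gained (0.848%, against 0.542%). Regions in Arhgap45, Cdc37, Cipc and Ikzf1 again led the lost ones and all 4 had called peaks in every Control and FK866 library, and Adprm, Tent5c, Rmi2 and Fbxo5 followed. The strongest gained included regions in Prickle1, Dync2li1, Cry1, a repressor of the circadian clock, and Birc2, the gene of the apoptosis inhibitor cIAP1. The Birc2 region (chr9:7833351-7833955) had no peak in Control, 69.3% and 75.7% coverage with FK866, and 89.1% and 93.9% with FK866 plus succinate. The Cry1 region (chr10:85161644-85162207) had no peak in Control, 98.2% and 73.8% with FK866, and 47.2% and 54.4% with FK866 plus succinate.

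**Figure D5:**
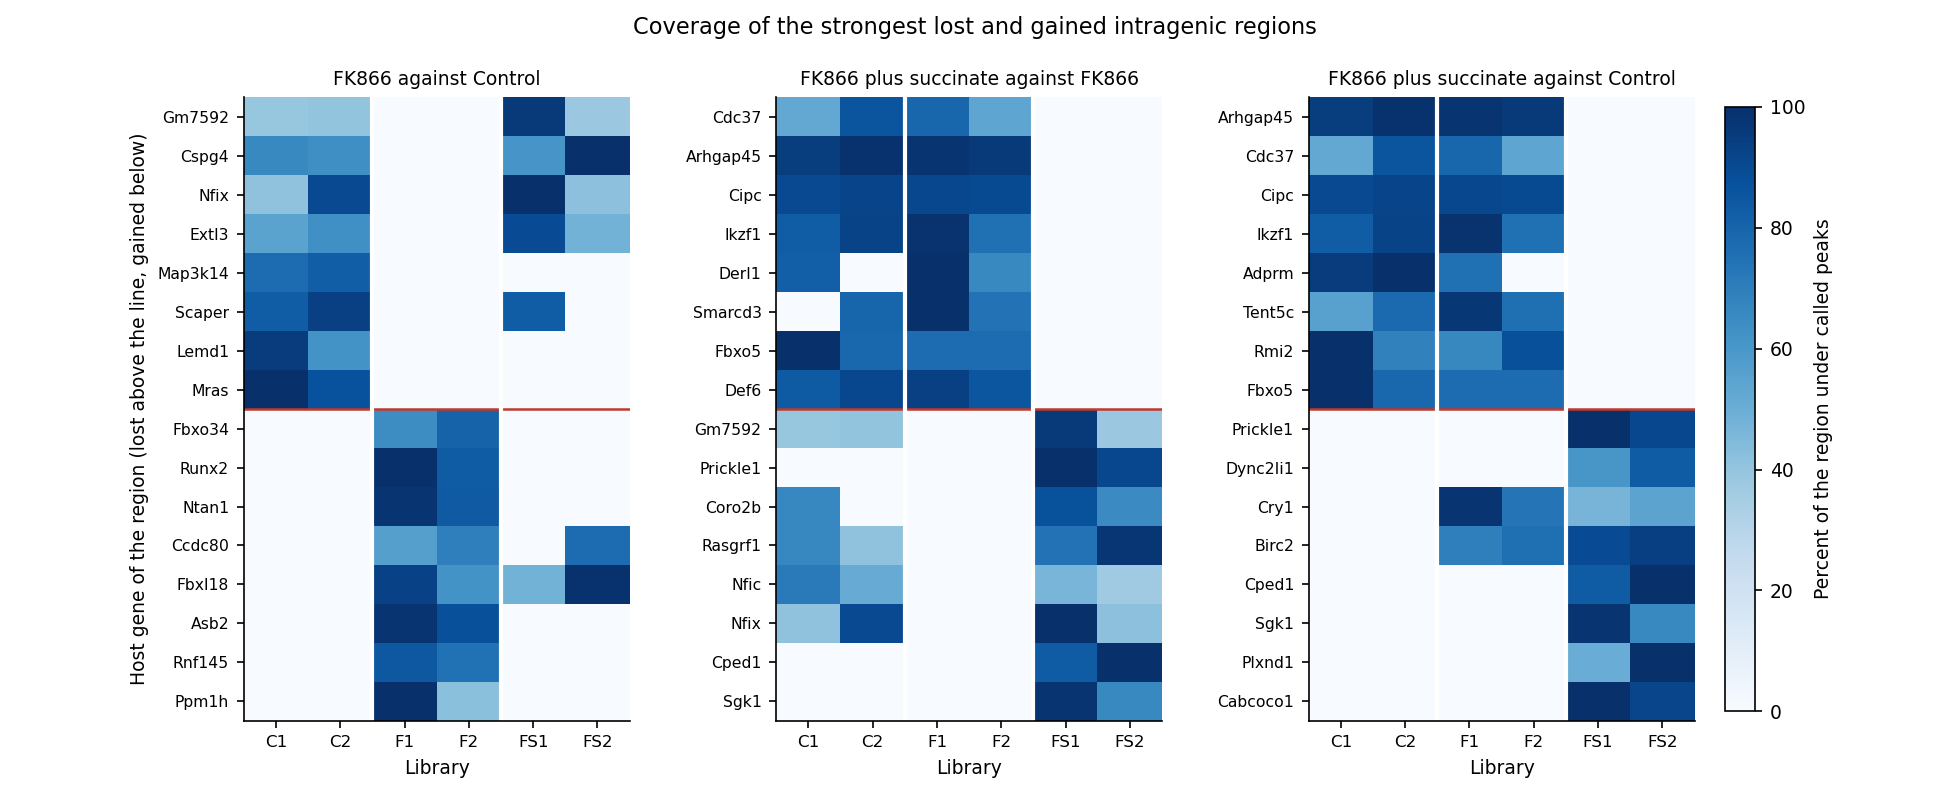
Percent of each region covered by called peaks (colour) in Control (C1, C2), FK866 (F1, F2) and FK866 plus succinate (FS1, FS2) libraries, for the 8 lost (above the line) and 8 gained (below) regions with the highest strength in each of the 3 comparisons, named by host gene. Coverage in the group that lacks a region is 0 by the definition of lost and gained, so the third group of each panel is the informative one. Arhgap45, Cdc37, Cipc and Ikzf1 are covered in all 4 libraries without succinate.

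By limma 0 of 9432 regions passed an adjusted p under 0.05 in this comparison (background 0%), and the lowest adjusted value was 0.338. Unadjusted, at p under 0.05, 249 regions were wider (2.64%, against 2.04% of all) and 777 narrower (8.24%, against 9.98%). The median difference was −5.75 points, against −4.29 over all, and −2.75 without Control replicate 2. After quantile normalization the median was 0, with 384 wider and 452 narrower. The fit without a trend called 231 regions (2.45%, against 1.73% of all), 223 of them empty in both libraries of 1 group. The region in Lmna (chr3:88500155-88503697), which holds an alternative start of the lamin A and C gene, was covered by 99.2% and 99.0% in Control, 95.1% and 88.7% with FK866, and 65.5% and 68.6% with FK866 plus succinate (difference −32.0 ± 5.8 points, limma, adjusted p = 0.338). The region in Traf1 (chr2:34956826-34958998), an adaptor of TNF receptors, was wider, with 84.4% and 89.0%, 94.8% and 93.5%, and 98.1% and 99.0%.

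Few regions at alternative starts were lost or gained, but 89.7% of them had a called peak in all 6 libraries and could be neither. Over all 29342 regions 0.818%, 1.06% and 1.26% were lost and 0.549%, 0.665% and 0.542% gained in the 3 comparisons in the order given above. Of the 917 with an alternative start, 2, 0 and 3 were lost and 0, 2 and 1 gained in the same comparisons. Their median differences were −0.06, −3.16 and −3.06 points, against −0.86, −5.24 and −6.62 for the 8392 regions with no listed start. At an unadjusted p under 0.05, 100 and 106 of the 917 (10.9% and 11.6%) were narrower in the comparisons with succinate, close to the 9.28% and 9.98% of all regions, and 14 and 10 were wider.

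No gene list had a region that passed the adjusted test. The median differences of the 143 regions of ILC2 transcription factors were −0.79, −7.40 and −10.5 points in the 3 comparisons, and 0, −1.52 and −3.21 after quantile normalization. For the 44 regions of NF-kB and NFAT genes they were −11.2, −2.73 and −18.7, or −7.40, 0 and −8.29 after it, with 16 of the 44 in Nfkb1. For the 14 regions of TCA cycle genes they were 2.27, −22.3 and −11.2, or 4.40, −13.0 and −6.81 after it, with 12 of the 14 below 0 for FK866 plus succinate against FK866, where 64.4% of all regions were below 0. For the 9 regions of AP-1, BATF, EGR and NR4A genes the medians were above 0, at 2.42, 4.34 and 6.81. For the 18 of NAD genes they were 1.99, −10.7 and −1.44, or 5.67, −6.60 and −0.01 after it. For the 6 regions of neuronal genes, the non-lymphoid comparison, the medians were −24.8, 23.0 and −6.15. After quantile normalization they were −17.7, 27.7 and 2.88. Medians as large as those of the TCA cycle list thus also occurred in the non-lymphoid list. The corresponding medians over all regions were −0.24, −3.89 and −4.29. These values rest on few regions with wide spreads and on shared samples.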

How the data were processed

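The 6 CUT&Tag libraries of cultured ILC2s form 3 groups of 2 by their treatment labels. Reads were trimmed with cutadapt 1.9 and aligned with Bowtie2 2.5.0 to mm10, per the submitters' processing notes. No source used here names the peak caller. The deposited lists give each peak a fold enrichment (a ratio) and a −log10 p and −log10 q value made by the authors. Read depth is unknown.

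Regions were built in Python 3.11.15 (pandas 2.3.3). Coverage of each region by called peaks was fitted over all 29342 regions and 3 groups with limma 3.58.1 in R 4.3.3 (eBayes with a trend on mean coverage, Benjamini-Hochberg adjustment), which was tested on simulated data. Other tests were exact permutations over libraries. Named regions were the genes with most regions, the strongest and widest regions, the 8 strongest lost and gained and the 6 wider and narrower with the smallest p per comparison, list genes with most regions or with a lost or gained one, and cell type markers. The mapped genes, the printed promoters, Zbtb16, Nampt, the densest genes and the tests of start classes were chosen after values were seen. The members and lists were chosen with earlier results of these data known.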

Additional observations from a re-analysis of the deposited data

How the results depend on the processing

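The number of regions that passed the limma test was 0 in all 3 comparisons under each alternative run except one chosen after seeing the data, a prior with no trend on mean coverage, which gave 185, 205 and 231 (FK866 against Control, FK866 plus succinate against FK866, FK866 plus succinate against Control). With the replicate number as a block it was 0 as well, with smallest adjusted p-values of 0.982, 0.447 and 0.415. Deviations of same-numbered libraries correlated at −0.00781, −0.00339 and 0.00253, so no shared shift by replicate number was seen in coverage. Whether same-numbered libraries shared a culture or animal cannot be told from these values.

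Counts of lost and gained regions moved with most settings. With peaks at an adjusted p under 0.01 they were 31 and 29, 65 and 35, and 57 and 26 for the 3 comparisons as listed above. With at least 3 libraries they were 28 and 25, 86 and 35, and 87 and 21. With called peaks only in the other group they were 336 and 323, 573 and 248, and 629 and 238. With an equal number of strongest peaks per library, lost and gained regions were 57 and 38, 83 and 83, and 96 and 72, so that losses no longer exceeded gains with FK866 plus succinate against FK866. Leaving out each library gave 204 to 326 lost and 164 to 300 gained, 270 to 400 and 191 to 232, and 283 to 433 and 155 to 221. It gave a between-group share of the sum of squares of called peaks of 0.731 to 0.962, and a Jaccard difference of 0.0113 to 0.0258. Against gene ends it gave −634.8 to −617.6 bp in width, −23.8 to −22.1 in strength percentile and −0.780 to −0.746 in the number of other libraries, where 5 libraries cannot reach 0.05. With 2 libraries a group and no read counts, weak peaks that come and go set the limit.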
